A study of Mus musculus with 12 samples.

Results

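The matrix metalloproteases (MMPs), ADAM, ADAMTS and ADAMTS-like genes, their TIMP inhibitors and the plasminogen activator genes were examined in RNA-seq counts from 12 tumoursphere libraries of mouse mammary cancer cells. Members were all protein-coding genes of the count files whose GENCODE M21 symbol was Mmp, Adam, Adamts, Adamtsl or Timp followed by a number, with Plau, Plaur, Plat and Reck added. This rule gave 47 of the 18278 genes listed, made up of 15 Mmp, 11 Adam, 10 Adamts, 4 Adamtsl and 3 Timp genes and the 4 named ones. A further 40 genes of the annotation that meet the rule had no row and were not analysed here. All 47 passed the filter on low counts.

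LM1 and LM9 came from lung metastases that formed after piggyBac transposon mutagenesis of HR1, a non-metastatic mammary cancer line from mice that carry a mutant PIK3CA transgene under the CAG promoter. LM1 Nfib KO and LM9 Nfib KO are described as pools of few clones made from these lines by CRISPR-Cas9 with a single guide RNA to Nfib, the gene of the transcription factor nuclear factor IB, after sorting for red fluorescent protein. All 4 groups had 3 libraries each, from cells kept in non-adherent plates for 6 days at 10000 cells per mL in B27-supplemented medium that held 20 ng per mL each of EGF and basic FGF. The labels do not say whether the replicates were separate cultures, so the p-values measure only the spread between these libraries, which may be technical. The comparisons ask how matrix proteases and inhibitors differ between each knockout-labelled pool and its line, and between the lines.

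MMPs are zinc-dependent endopeptidases that together cleave most components of the extracellular matrix, either secreted or held at the membrane, and they are made as inactive precursors. ADAMs shed the extracellular parts of membrane proteins such as growth factors and Notch receptors, while ADAMTS enzymes are secreted and cut proteoglycans, procollagens and other matrix proteins. TIMPs and RECK inhibit these enzymes, and the plasminogen activators uPA and tPA start a protease cascade in which plasmin degrades fibrin and matrix and activates some MMP precursors. Several of these enzymes and inhibitors have been studied in invasion and metastasis of mammary tumours.

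Levels are given as CPM (counts per 1000000 of the TMM-scaled library size), and levels of different genes are compared only as CPM per kb of exon. Library totals ran from 29249075 to 37162594 counts, so that a floor of 3 counts per library stood at 0.0730 to 0.121 CPM. Floors cover counting error only, whereas SDs and standard errors also hold the spread between libraries. For Nfib itself the LM1 libraries held 218 ± 22.6 CPM and those labelled LM1 Nfib KO 235 ± 5.67 (mean ± SD, n = 3). In the LM9 libraries it was 154 ± 48.8 (210, 120 and 133 in replicates 1 to 3) and in those labelled LM9 Nfib KO 240.0 ± 11.2. By limma-voom Nfib was higher in LM9 Nfib KO than in LM9, with a log2 fold change of 0.68 (SE 0.17, adjusted p = 0.0026). Without LM9 replicate 1 the limma-voom value was 0.93 (SE 0.070, adjusted p = 1.14e-09). Nfib RNA was thus not lower in the libraries labelled knockout, so every direction below rests on the labels, and these libraries are called LM1-KO-labelled and LM9-KO-labelled. Counts over whole exons do not show an edit of the gene. Of 8 markers of luminal epithelium, 7 were listed, and their summed level fell from between 790.4 and 853 CPM in LM1 and between 847 and 1492 in LM9 to between 1.09 and 1.40 in the 6 knockout-labelled libraries, with Cdh1 and Cldn3 at or under 3 counts in each of them. Among 6 endothelial markers 3 were listed, and Kdr and Cdh5 brought their sum from between 0.202 and 1.33 CPM in the parental libraries to between 350.5 and 359 in the knockout-labelled ones. Pecam1, the remaining one, ran from 0.169 to 1.33 CPM in the parental libraries and from 0.243 to 0.555 in the knockout-labelled ones. It did not pass in either pair with all libraries. Without LM9 replicate 1 limma-voom gave it a log2 fold change of -1.89 (SE 0.30, adjusted p = 1.66e-05) in the LM9 pair. All 11 fibroblast or mesenchymal markers were listed, and 9 were higher and 2 lower in LM1-KO-labelled than in LM1, and 8 higher and 1 lower in the LM9 pair (8 and 3 without LM9 replicate 1). Their summed level went the other way, from between 14594 and 15890.2 CPM in LM1 and between 14179 and 16530.3 in LM9 to between 6889 and 7146 in the knockout-labelled libraries. Fn1, the gene of fibronectin, made up most of the parental sum and was at 11315 to 12436 CPM in LM1, 8409 to 11634 in LM9 and 186 to 197 in the knockout-labelled libraries. Basal markers had 3 of 7 listed, with Krt14 and Krt17 higher in both pairs and Trp63 lower in the LM1 pair. Leukocyte markers had 1 of 7 listed, Csf1r, at 0 to 0.0337 CPM in the parental libraries and 11.4 to 13.2 in the knockout-labelled ones. The counts do not show whether the 6 knockout-labelled libraries came from the LM1 and LM9 lines, so that each pair fold change below compares libraries by their labels. The part of these marker differences in the results was not tested, and in bulk RNA fewer cells of a type and less RNA per cell cannot be told apart.

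LM9 replicate 1 stood apart from the other LM9 libraries over the members. Its root mean square log2 difference to the 3 LM1 libraries was 0.143 to 0.151, against 1.02 to 1.03 to LM9 replicates 2 and 3, and LM1 libraries differed from each other by 0.110 to 0.160. In 41 of 47 members it was nearer to the LM1 mean than to the mean of the other LM9 libraries, which goes against its label. This was a trait of the whole library, since over all genes tested the difference was 0.167 to 0.181 to the LM1 libraries and 0.663 to 0.692 to LM9 replicates 2 and 3. Limma-voom results of the LM9 pair are therefore given with and without it, while those under another scaling or tool include it. Bounds against the floor for genes near 0 in LM9 were the same with and without it. The 2 knockout labels were as close to each other (0.101 to 0.167) as libraries within 1 of them (0.0899 to 0.153), whereas parental and knockout-labelled libraries differed by 2.45 to 2.70.

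**Figure D1:**
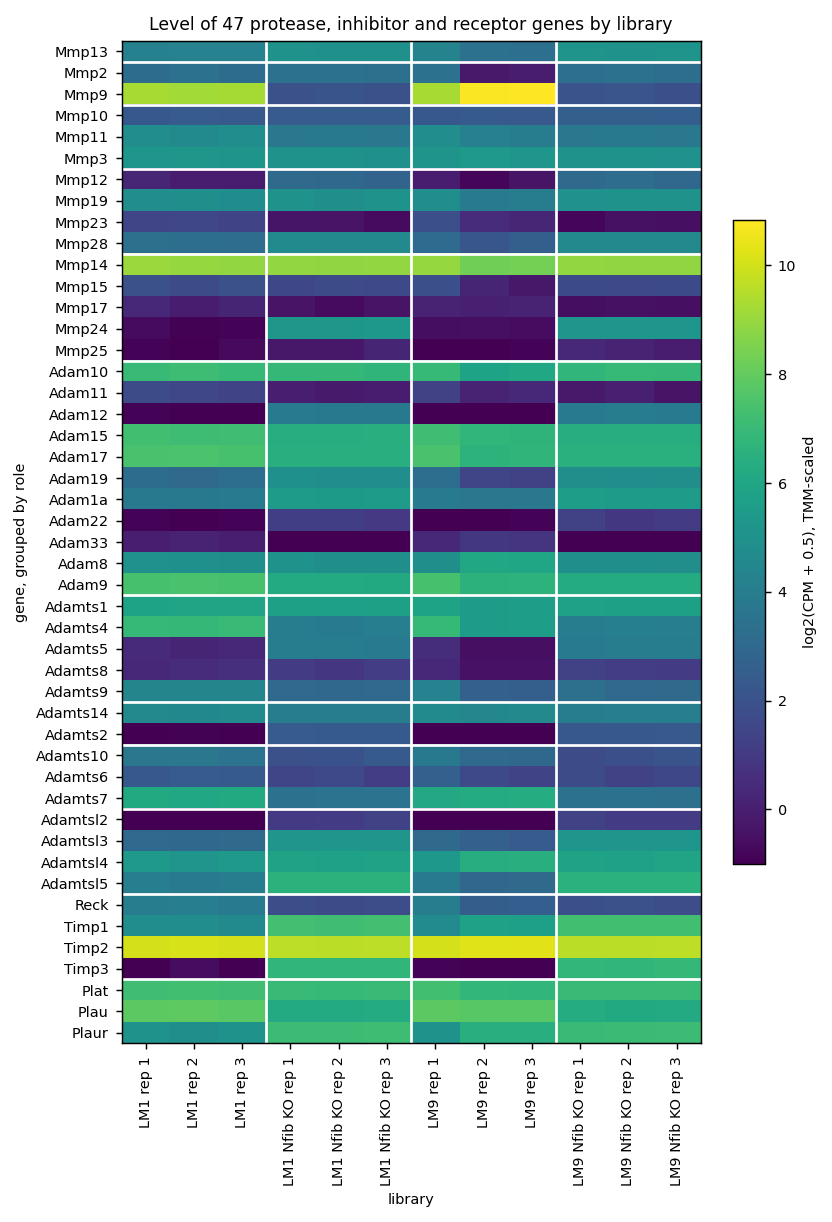
Levels of the 47 members in the 12 libraries, as log2(CPM + 0.5), with genes in rows grouped by role (white lines) and libraries in columns by group. The 6 knockout-labelled columns look alike, and the column of LM9 replicate 1 resembles the 3 LM1 columns rather than LM9 replicates 2 and 3.

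Mmp13, Mmp12, Mmp3 and Mmp10 lie next to each other in this order on the + strand of chromosome 9, with gaps of 61049, 76322 and 46376 bases and no protein-coding gene annotated between them. Their promoters are shown because an AP-1 element close to the start is a well known feature of MMP promoters. RefSeq promoter windows (GRCm38.p6, 250 bases before to 50 after a start) were present for 31 of the 47 members. TGAGTCA, the 7-letter AP-1 consensus, which reads TGACTCA on the other strand, was found in the windows of 6 of these 31 members (19.4%), against 5.95% of all 27025 genes with a window and 5.20% of all 32851 windows. The 6 stretches follow, 5′ to 3′ on the + strand, with the match in capitals.
Mmp13, chr9:7272469-7272495: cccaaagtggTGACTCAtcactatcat
Mmp12, chr9:7347320-7347346: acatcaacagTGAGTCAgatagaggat
Mmp3, chr9:7445766-7445792: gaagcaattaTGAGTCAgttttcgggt
Mmp10, chr9:7502269-7502295: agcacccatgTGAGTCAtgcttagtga
Plaur, chr7:24462404-24462430: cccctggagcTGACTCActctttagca
Adam19, chr11:46055843-46055869: gtccttcaccTGAGTCAgcgatgctcc
In the 4 cluster genes the match begins 35, 44, 46 and 63 bases before the RefSeq start site, in the order listed. For Mmp12 this start lies inside the GENCODE gene, which begins at 7344381 and was used for the gaps. The full palindrome bound by nuclear factor I proteins, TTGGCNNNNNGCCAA, which reads the same on both strands, was in none of the 35 member windows and in 0.0365% of all windows. Neither motif contains the other. A match is a description of letters, and the lack of one says only that these letters are not in this window.

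In the LM1 pair, 38 of the 47 members passed limma-voom at an adjusted p under 0.05 (Benjamini-Hochberg over all genes tested), with 18 higher and 20 lower in LM1-KO-labelled. Across all 18176 genes tested 81.2% passed, 43.1% higher and 38.1% lower, so that the members' share of 80.9% was near the background. In the LM9 pair 42 members passed, 24 higher and 18 lower, beside a background of 82.3% (44.3% higher, 38.0% lower). Without LM9 replicate 1 the LM9 pair gave 46 members, 27 higher and 19 lower, beside 88.9% (47.7% and 41.2%), and the LM1 pair gave 44, 20 higher and 24 lower, beside 88.6% (46.4% and 42.1%). With total counts in place of TMM factors the split was 20 higher and 18 lower in the LM1 pair, beside 48.0% and 32.9% of all genes, and 26 higher and 9 lower in the LM9 pair, beside 52.3% and 30.2%. Over all genes, that scaling moved the median log2 fold change from 0.08 to 0.31 in the LM1 pair and from 0.13 to 0.49 in the LM9 pair. The sign of Adam10, Adam8, Adamts1, Mmp14 and Mmp3 in the LM1 pair and of Adamts9, Adamtsl4 and Mmp3 in the LM9 pair changed with it. An absolute log2 fold change above 1 beside the adjusted p was met by 30 members in each pair, where 55.0% and 57.5% of all genes met it. Without LM9 replicate 1 these were 30 members beside 55.4% in the LM1 pair and 29 beside 59.8% in the LM9 pair. The median absolute log2 fold change of the members was 1.60 in the LM1 pair and 1.498 in the LM9 pair, against 1.16 and 1.24 over all genes. In the LM1 pair 20 members were higher and 23 lower with no overlap of the 2 groups, beside 46.8% and 42.3% of all genes. In the LM9 pair these numbers were 20 and 17, beside 43.4% and 37.1%, and without LM9 replicate 1 they were 27 and 19, beside 49.4% and 42.5%.

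Both pairs gave a rise of 18 members and a fall of 17, where 39.6% of all genes tested rose and 33.5% fell in both, so the members' shares of 38.3% and 36.2% were near the background. Those that rose were Mmp12, Mmp13, Mmp24, Mmp25, Mmp28, Adam1a, Adam12, Adam19, Adam22, Adamts2, Adamts5, Adamts8, Adamtsl2, Adamtsl3, Adamtsl5, Timp1, Timp3 and Plaur. Those that fell were Mmp3, Mmp9, Mmp11, Mmp17, Mmp23, Adam9, Adam11, Adam15, Adam17, Adam33, Adamts4, Adamts7, Adamts10, Adamts14, Timp2, Reck and Plau. No member passed in opposite directions with all libraries, beside 0.0385% of all genes (0.0110% lower in the LM1 pair and higher in the LM9 pair, 0.0275% the reverse). Without LM9 replicate 1 there were 7, beside 5.73% of all genes, of which Adam10, Adamts1, Adamts9, Mmp14, Mmp15 and Plat were lower in LM1-KO-labelled than in LM1 and higher in LM9-KO-labelled than in LM9, and Adamtsl4 the other way round, beside 3.50% and 2.23% of all genes. In the LM1 pair the 11 Adam genes divided into 4 higher and 5 lower, the 4 inhibitors into 2 and 2, and the 5 proteoglycan-cutting Adamts genes into 2 and 2, with the remaining members not passing. In the LM9 pair these were 5 and 6, 2 and 2, and 2 and 1. The proteoglycan-cutting genes without LM9 replicate 1 were 2 higher and 3 lower in the LM1 pair and 4 higher and 1 lower in the LM9 pair. Of the 4 ADAMTS-like genes 3 were higher and none lower in both pairs, and of Adamts6, Adamts7 and Adamts10 none was higher, with 3 lower in the LM1 pair and 2 in the LM9 pair, beside the 43.1% and 44.3% of all genes higher and 38.1% and 38.0% lower in the LM1 and LM9 pairs. The ADAMTS-like genes without LM9 replicate 1 were 4 higher in the LM1 pair and 3 higher and 1 lower in the LM9 pair.

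**Figure D2:**
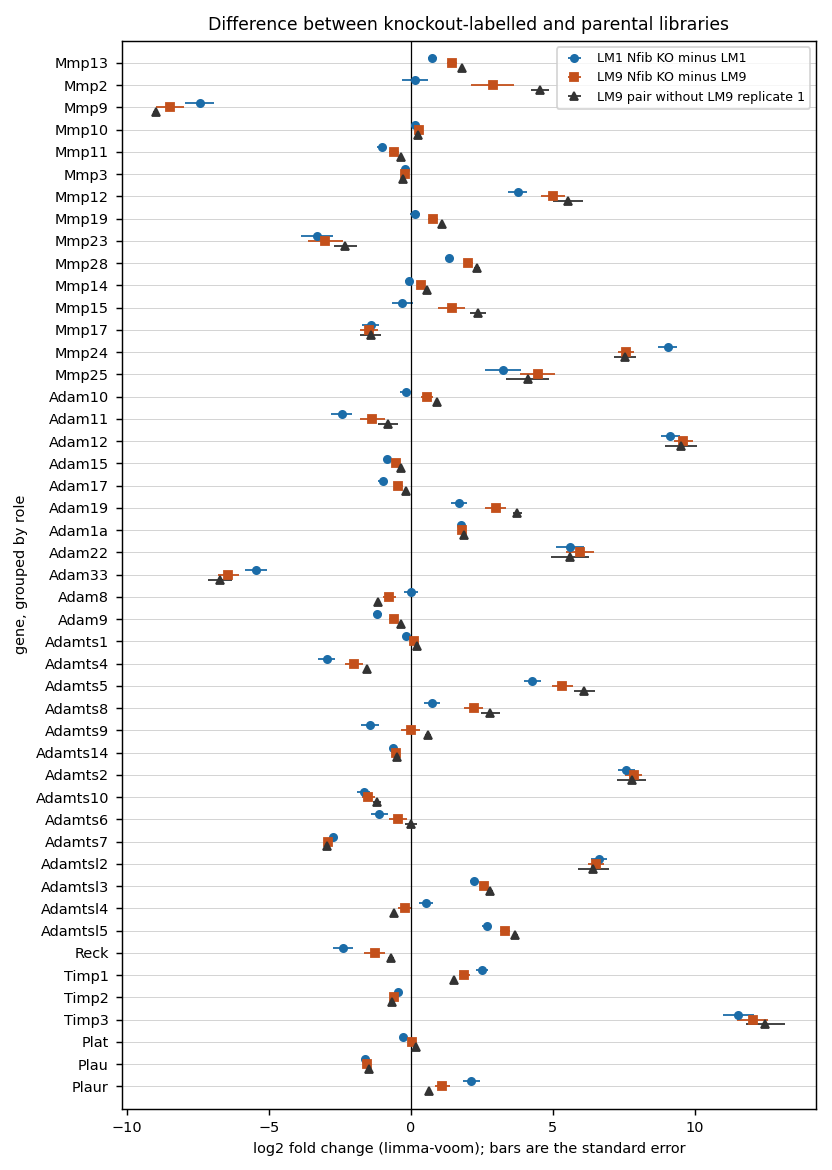
Limma-voom log2 fold change of each member, knockout-labelled minus parental, with bars for the standard error, for the LM1 pair (circles), the LM9 pair (squares) and the LM9 pair without LM9 replicate 1 (triangles). Timp3 and Adam12 lie farthest to the right, with Mmp24 next in the LM1 pair and Adamts2 next in the LM9 pair, and Mmp9 and Adam33 lie farthest to the left, and for most genes the 3 symbols lie on the same side of 0; values of genes with almost no reads in a group depend on the offset of 0.5 and are no bounds.

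Mmp9, gelatinase B, which cleaves denatured and basement membrane collagen, showed the largest fall of the members (ENSMUSG00000017737, chr2:164940780-164955850, + strand). It was at 626, 579 and 600.3 CPM in LM1, 3.37, 3.74 and 3.36 in LM1-KO-labelled, 626, 1757 and 1819 in LM9 and 3.53, 3.89 and 3.20 in LM9-KO-labelled. Every parental library was far above every knockout-labelled one, and LM9 replicates 2 and 3 were far above LM9 replicate 1. For Mmp9, limma-voom gave log2 fold changes of -7.43 (SE 0.51, adjusted p = 7.89e-08) in the LM1 pair, -8.47 (SE 0.51, adjusted p = 2.30e-08) in the LM9 pair and -8.97 (SE 0.093, adjusted p = 8.41e-21) in the LM9 pair without replicate 1. Mmp2, gelatinase A, the other member of this class, was at 8.65, 10.4 and 8.46 CPM in LM1, 10.4, 10.03 and 9.83 in LM1-KO-labelled, 10.4, 0.363 and 0.433 in LM9 and 9.59, 10.2 and 9.12 in LM9-KO-labelled. Only LM9 replicates 2 and 3 were low, under 1 CPM, and the LM1 and LM1-KO-labelled ranges overlapped. For Mmp2, limma-voom log2 fold changes were 0.14 (SE 0.46, adjusted p = 0.788) in the LM1 pair, 2.88 (SE 0.75, adjusted p = 0.00397) in the LM9 pair and 4.54 (SE 0.32, adjusted p = 5.04e-10) in the LM9 pair without replicate 1. In the LM9 pair with all libraries the quasi-likelihood test of edgeR did not call Mmp2 (adjusted p = 0.142).

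The collagenase Mmp13, which cuts fibrillar collagen, was the only collagenase listed. It was at 17.7, 18.6 and 18.5 CPM in LM1, 31.9, 30.6 and 30.2 in LM1-KO-labelled, 19.1, 10.3 and 9.41 in LM9 and 33.9, 33.5 and 34.3 in LM9-KO-labelled. All knockout-labelled libraries were above all parental ones, and LM9 replicates 2 and 3 were lowest. For Mmp13, limma-voom gave log2 fold changes of 0.76 (SE 0.17, adjusted p = 0.0014) in the LM1 pair, 1.44 (SE 0.18, adjusted p = 1.64e-05) in the LM9 pair and 1.79 (SE 0.073, adjusted p = 2.18e-13) in the LM9 pair without replicate 1. Mmp3, stromelysin 1, which cuts proteoglycans, laminin and fibronectin, was at 36.8, 38.4 and 34.2 CPM in LM1, 31.9, 32.4 and 30.5 in LM1-KO-labelled, 34.2, 40.6 and 37.2 in LM9 and 33.3, 31.7 and 31.6 in LM9-KO-labelled. The groups differed little and did not overlap within either pair. For Mmp3, limma-voom log2 fold changes were -0.20 (SE 0.075, adjusted p = 0.0251) in the LM1 pair, -0.21 (SE 0.075, adjusted p = 0.0241) in the LM9 pair and -0.27 (SE 0.058, adjusted p = 0.000424) in the LM9 pair without replicate 1, and with total counts they turned to 0.02 and 0.15. Mmp11, stromelysin 3, was at 27.5, 25.0 and 27.2 CPM in LM1, 12.8, 13.2 and 12.9 in LM1-KO-labelled, 27.5, 17.1 and 15.5 in LM9 and 12.8, 13.1 and 12.8 in LM9-KO-labelled. Its knockout-labelled libraries were lower than all parental libraries in both pairs. For Mmp11, limma-voom gave log2 fold changes of -1.03 (SE 0.16, adjusted p = 0.000103) in the LM1 pair, -0.60 (SE 0.17, adjusted p = 0.00616) in the LM9 pair and -0.33 (SE 0.071, adjusted p = 0.000337) in the LM9 pair without replicate 1. Mmp10, stromelysin 2, was low throughout, from 4.22 to 5.42 CPM over the 12 libraries, with a log2 fold change of 0.13 (SE 0.092, adjusted p = 0.198) in the LM1 pair, 0.28 (SE 0.092, adjusted p = 0.0145) in the LM9 pair and 0.25 (SE 0.11, adjusted p = 0.0359) in the LM9 pair without replicate 1 by limma-voom. In the chromosome 9 cluster, Mmp13 and Mmp12 therefore rose in both pairs while their neighbour Mmp3 was slightly lower and Mmp10 stayed between 4.22 and 5.42 CPM.

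Mmp19, which cleaves basement membrane proteins, was at 27.4, 29.6 and 26.7 CPM in LM1, 31.8, 29.2 and 31.7 in LM1-KO-labelled, 27.5, 14.1 and 15.8 in LM9 and 31.0, 32.6 and 32.4 in LM9-KO-labelled. LM9 replicates 2 and 3 stood below all others, and the LM1 pair overlapped. For Mmp19, limma-voom log2 fold changes were 0.15 (SE 0.17, adjusted p = 0.44) in the LM1 pair, 0.79 (SE 0.18, adjusted p = 0.00168) in the LM9 pair and 1.10 (SE 0.076, adjusted p = 3.55e-10) in the LM9 pair without replicate 1. In the fit without that library Mmp19 was also called higher in the LM1 pair, at 0.15 (SE 0.054, adjusted p = 0.0169) by limma-voom. Part of its exon sequence overlaps another listed gene, so reads there could not be assigned with certainty. Mmp28, epilysin, was at 9.68, 9.23 and 8.93 CPM in LM1, 24.1, 23.4 and 23.5 in LM1-KO-labelled, 8.26, 3.99 and 5.55 in LM9 and 23.6, 23.5 and 23.5 in LM9-KO-labelled. All 6 knockout-labelled libraries were above all parental ones. For Mmp28, limma-voom gave log2 fold changes of 1.35 (SE 0.15, adjusted p = 5.02e-06) in the LM1 pair, 2.02 (SE 0.17, adjusted p = 4.39e-07) in the LM9 pair and 2.32 (SE 0.11, adjusted p = 2.46e-12) in the LM9 pair without replicate 1. Mmp12, macrophage elastase, rose from 0.429 to 0.709 CPM in LM1 to 6.26 to 8.08 in LM1-KO-labelled, and from 0.0806 to 0.472 in LM9 to 7.25 to 8.73 in LM9-KO-labelled. Mmp23 was the opposite, at 2.20 to 2.33 CPM in LM1 and 0.132 to 0.302 in LM1-KO-labelled, and at 0.708 to 3.17 in LM9 and 0.0778 to 0.219 in LM9-KO-labelled. Limma-voom called Mmp12 higher and Mmp23 lower in both pairs, with and without LM9 replicate 1.

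Mmp14, the membrane-type MMP that activates the Mmp2 precursor, had the highest level per kb of exon among the membrane-type members (ENSMUSG00000000957, chr14:54431612-54445364, + strand). It was at 521, 499 and 479.8 CPM in LM1, 479, 468 and 481 in LM1-KO-labelled, 505, 310.0 and 323 in LM9 and 478, 470.4 and 463 in LM9-KO-labelled. It lay between 463 and 521 CPM in 10 libraries, with LM9 replicates 2 and 3 lower. For Mmp14, limma-voom gave log2 fold changes of -0.07 (SE 0.14, adjusted p = 0.663) in the LM1 pair, 0.35 (SE 0.14, adjusted p = 0.042) in the LM9 pair and 0.58 (SE 0.036, adjusted p = 8.83e-11) in the LM9 pair without replicate 1, and the value in the LM1 pair turned to 0.15 with total counts. With all libraries, Mmp14 in the LM9 pair was not called by edgeR or DESeq2, nor by limma-voom once any 1 library other than LM9 replicate 1 was left out. Mmp24, another membrane-type MMP, known from neural tissue, was at 0.142, 0.0307 and 0.0361 CPM in LM1, 37.8, 37.3 and 39.7 in LM1-KO-labelled, 0.169, 0.201 and 0.157 in LM9 and 35.3, 37.2 and 37.2 in LM9-KO-labelled. The parental libraries had few reads (1 to 5 counts in each), and the knockout-labelled ones were all above 35 CPM. For Mmp24, limma-voom log2 fold changes were 9.03 (SE 0.33, adjusted p = 3.88e-10) in the LM1 pair, 7.56 (SE 0.28, adjusted p = 3.95e-10) in the LM9 pair and 7.53 (SE 0.40, adjusted p = 9.00e-12) in the LM9 pair without replicate 1. Some of its exon bases overlap another listed gene, so its reads carry that uncertainty. Mmp15 was at 2.88 to 3.33 CPM in LM1 and 2.42 to 2.74 in LM1-KO-labelled, and at 0.354 to 3.17 in LM9 and 2.53 to 2.70 in LM9-KO-labelled, where 3.17 was replicate 1. Mmp17 and Mmp25, which are held by a lipid anchor, stayed under 1 CPM in all 12 libraries, and limma-voom called Mmp17 lower and Mmp25 higher in both pairs, with and without LM9 replicate 1.

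Per kb of exon, Mmp9 made up 54.0 to 56.1% of the summed Mmp level in LM1, 56.1% in LM9 replicate 1 and up to 84.7% in the other LM9 libraries. In LM1-KO-labelled it was 0.650 to 0.735% and in LM9-KO-labelled 0.626 to 0.752%. Mmp14 was the leading Mmp gene there, at 54.7 to 55.5% and 53.8 to 54.5%, after 26.6 to 27.7% in LM1. The summed level of the 15 Mmp genes was 302 to 318 CPM per kb in LM1, 315 to 607 in LM9 and 144 to 147 in the knockout-labelled libraries, and Mmp9 alone was 163 to 177 in LM1. Mmp14 was at 80.5 to 87.5 CPM per kb in LM1 and 78.5 to 80.6 in LM1-KO-labelled, so its larger share went with a nearly equal level.

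**Figure D3:**
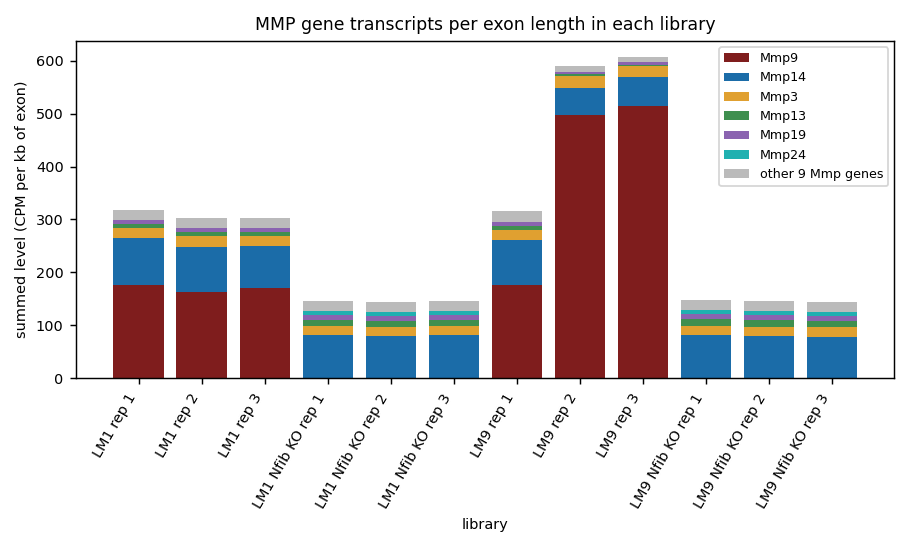
Summed level of the 15 Mmp genes in each library, in CPM per kb of exon, stacked by gene. Mmp9 (dark red) is the tallest segment in all 6 parental libraries and is hardly visible in the 6 knockout-labelled ones, while the Mmp14 segment (blue) stays between 77.7 and 87.5 CPM per kb except in LM9 replicates 2 and 3.

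Adam10 and Adam17 are the main sheddases of Notch and of tumour necrosis factor and EGF receptor ligands. Adam10 was at 125, 140.0 and 122 CPM in LM1, 118, 116 and 107 in LM1-KO-labelled, 121, 58.2 and 65.8 in LM9 and 109, 121 and 118 in LM9-KO-labelled. LM9 replicates 2 and 3 were near 60 CPM and all others above 100. For Adam10, limma-voom gave log2 fold changes of -0.18 (SE 0.20, adjusted p = 0.408) in the LM1 pair, 0.58 (SE 0.21, adjusted p = 0.0219) in the LM9 pair and 0.91 (SE 0.072, adjusted p = 2.16e-09) in the LM9 pair without replicate 1, and the LM1 value was 0.04 with total counts. Adam17 was at 171, 178 and 168 CPM in LM1, 87.0, 86.6 and 87.2 in LM1-KO-labelled, 171, 100.1 and 105 in LM9 and 90.2, 90.6 and 89.6 in LM9-KO-labelled. Its 6 knockout-labelled libraries lay below every parental one. For Adam17, limma-voom log2 fold changes were -0.99 (SE 0.15, adjusted p = 9.38e-05) in the LM1 pair, -0.44 (SE 0.16, adjusted p = 0.0212) in the LM9 pair and -0.19 (SE 0.039, adjusted p = 0.000296) in the LM9 pair without replicate 1. Adam9, which cuts several membrane proteins, was at 165, 174 and 166 CPM in LM1, 74.6, 74.5 and 72.9 in LM1-KO-labelled, 165, 98.0 and 100.5 in LM9 and 77.2, 77.6 and 78.2 in LM9-KO-labelled. This gene followed the pattern of Adam17, and it was the Adam gene with the highest level per kb in LM1 and LM9, while Adam10 was highest in the knockout-labelled libraries. For Adam9, limma-voom gave log2 fold changes of -1.19 (SE 0.15, adjusted p = 2.02e-05) in the LM1 pair, -0.60 (SE 0.15, adjusted p = 0.00364) in the LM9 pair and -0.35 (SE 0.038, adjusted p = 1.73e-07) in the LM9 pair without replicate 1. Adam15, an integrin-binding member, was at 151, 144 and 147 CPM in LM1, 81.6, 81.0 and 85.1 in LM1-KO-labelled, 147, 109 and 102 in LM9 and 81.5, 82.1 and 81.2 in LM9-KO-labelled. Again no parental library overlapped the knockout-labelled ones. For Adam15, limma-voom log2 fold changes were -0.83 (SE 0.11, adjusted p = 2.07e-05) in the LM1 pair, -0.53 (SE 0.11, adjusted p = 0.000811) in the LM9 pair and -0.36 (SE 0.042, adjusted p = 3.47e-07) in the LM9 pair without replicate 1.

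Adam8, which is common on leukocytes and has been studied in breast cancer, was at 31.2, 29.9 and 28.9 CPM in LM1, 31.7, 28.9 and 29.5 in LM1-KO-labelled, 29.3, 66.5 and 62.0 in LM9 and 29.1, 29.6 and 28.4 in LM9-KO-labelled. Only LM9 replicates 2 and 3 were high, at over 60 CPM. For Adam8, limma-voom gave log2 fold changes of -0.00031 (SE 0.25, adjusted p = 0.999) in the LM1 pair, -0.76 (SE 0.24, adjusted p = 0.0122) in the LM9 pair and -1.14 (SE 0.052, adjusted p = 9.66e-13) in the LM9 pair without replicate 1, and the value in the LM1 pair had no fixed sign across settings. Adam12, linked to muscle and mesenchymal cells, was at 0.0354, 0 and 0 CPM in LM1, 14.3, 13.4 and 13.4 in LM1-KO-labelled, 0, 0 and 0 in LM9 and 14.4, 15.03 and 13.9 in LM9-KO-labelled. With every parental library at or under 3 counts, the knockout-labelled level was at least 126-fold higher in the LM1 pair and at least 119-fold higher in the LM9 pair, against the floor per library. Adam19, meltrin beta, was at 8.72, 8.03 and 9.22 CPM in LM1, 29.7, 27.1 and 27.3 in LM1-KO-labelled, 9.11, 2.26 and 1.93 in LM9 and 28.4, 27.2 and 28.5 in LM9-KO-labelled. LM9 replicates 2 and 3 were lowest and the 6 knockout-labelled libraries highest. For Adam19, limma-voom log2 fold changes were 1.70 (SE 0.28, adjusted p = 0.000144) in the LM1 pair, 2.98 (SE 0.36, adjusted p = 1.05e-05) in the LM9 pair and 3.74 (SE 0.16, adjusted p = 5.21e-13) in the LM9 pair without replicate 1. Adam1a, which serves in sperm and fertilisation, was at 13.2, 13.1 and 13.5 CPM in LM1, 45.4, 43.4 and 46.1 in LM1-KO-labelled, 13.8, 12.2 and 12.9 in LM9 and 46.9, 46.1 and 44.6 in LM9-KO-labelled. All knockout-labelled libraries were above 40 CPM and all parental ones under 15, but 7432 of its 7508 exon bases overlap other listed genes, so these values may hold reads of its neighbours. For Adam1a, limma-voom gave log2 fold changes of 1.76 (SE 0.067, adjusted p = 5.20e-10) in the LM1 pair, 1.81 (SE 0.068, adjusted p = 4.94e-10) in the LM9 pair and 1.87 (SE 0.067, adjusted p = 3.54e-14) in the LM9 pair without replicate 1.

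Among the Adam genes under 10 CPM, Adam22, a brain protein without protease activity, had at most 3 counts in every parental library and 1.39 to 2.05 CPM in the knockout-labelled ones, at least 15.6-fold higher in the LM1 pair and 14.0-fold in the LM9 pair. Adam33 was reversed, with 0 counts in all 6 knockout-labelled libraries and 0.496 to 1.37 CPM in the parental ones, at least 6.92-fold and 14.4-fold lower (16.9-fold in the LM9 pair without replicate 1). Adam11, also known from brain, was at 2.20 to 2.91 CPM in LM1, 0.604 to 1.96 in LM9 and 0.260 to 0.535 in the knockout-labelled libraries. Limma-voom called all 3 genes in both pairs, with and without LM9 replicate 1.

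Adamts1, Adamts4, Adamts5, Adamts8 and Adamts9 cut proteoglycans such as aggrecan and versican. Adamts4 was at 122, 116 and 123 CPM in LM1, 15.3, 14.7 and 16.3 in LM1-KO-labelled, 120.4, 45.6 and 48.9 in LM9 and 15.2, 17.0 and 16.4 in LM9-KO-labelled. It fell from over 110 CPM in LM1 and LM9 replicate 1 to under 20 in the knockout-labelled libraries, with the other LM9 libraries between. For Adamts4, limma-voom gave log2 fold changes of -2.96 (SE 0.30, adjusted p = 2.54e-06) in the LM1 pair, -2.01 (SE 0.31, adjusted p = 8.12e-05) in the LM9 pair and -1.54 (SE 0.062, adjusted p = 1.80e-13) in the LM9 pair without replicate 1. Adamts5 was at 0.815, 0.674 and 0.759 CPM in LM1, 15.1, 15.4 and 13.8 in LM1-KO-labelled, 0.978, 0.201 and 0.197 in LM9 and 14.2, 15.4 and 15.2 in LM9-KO-labelled. Here the parental libraries were under 1 CPM and the knockout-labelled ones above 13. For Adamts5, limma-voom log2 fold changes were 4.28 (SE 0.30, adjusted p = 1.10e-07) in the LM1 pair, 5.33 (SE 0.37, adjusted p = 8.99e-08) in the LM9 pair and 6.10 (SE 0.36, adjusted p = 4.27e-11) in the LM9 pair without replicate 1. Adamts1, which lies beside Adamts5 on chromosome 16 with 53059 bases between them, was at 56.8, 58.8 and 59.6 CPM in LM1, 51.9, 51.0 and 51.8 in LM1-KO-labelled, 56.8, 43.9 and 49.4 in LM9 and 54.3, 53.0 and 52.9 in LM9-KO-labelled. It differed little between groups where its neighbour differed 10-fold or more. For Adamts1, limma-voom gave log2 fold changes of -0.18 (SE 0.079, adjusted p = 0.0547) in the LM1 pair, 0.10 (SE 0.080, adjusted p = 0.273) in the LM9 pair and 0.20 (SE 0.050, adjusted p = 0.00117) in the LM9 pair without replicate 1, with 0.04 in the LM1 pair under total counts. Adamts9 was at 20.2, 20.4 and 20.6 CPM in LM1, 7.73, 7.16 and 7.77 in LM1-KO-labelled, 18.3, 5.68 and 5.51 in LM9 and 9.80, 7.86 and 8.03 in LM9-KO-labelled. LM1 and LM9 replicate 1 were near 20 CPM, and LM9 replicates 2 and 3 were below all knockout-labelled libraries. For Adamts9, limma-voom log2 fold changes were -1.43 (SE 0.31, adjusted p = 0.00105) in the LM1 pair, -0.0073 (SE 0.34, adjusted p = 0.985) in the LM9 pair and 0.61 (SE 0.12, adjusted p = 0.000149) in the LM9 pair without replicate 1, and the LM9 value was 0.38 with total counts. Adamts8 was under 2 CPM in all libraries, and limma-voom called it higher in both pairs, also without LM9 replicate 1.

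Adamts14 and Adamts2 remove the amino-terminal propeptide of fibrillar procollagens. Adamts14 was at 23.5, 22.5 and 24.0 CPM in LM1, 15.2, 14.9 and 15.5 in LM1-KO-labelled, 24.8, 21.9 and 23.1 in LM9 and 15.7, 16.1 and 16.3 in LM9-KO-labelled. All 6 knockout-labelled libraries were lower than the parental ones. For Adamts14, limma-voom gave log2 fold changes of -0.62 (SE 0.067, adjusted p = 4.76e-06) in the LM1 pair, -0.54 (SE 0.068, adjusted p = 1.52e-05) in the LM9 pair and -0.49 (SE 0.059, adjusted p = 5.49e-07) in the LM9 pair without replicate 1. Adamts2 had at most 3 counts in every parental library and 4.28 to 4.78 CPM in the knockout-labelled ones, at least 43.1-fold higher in the LM1 pair and 35.7-fold higher in the LM9 pair. These procollagen-processing genes thus moved in opposite directions.

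Adamts7, which cuts cartilage oligomeric matrix protein, was at 71.9, 65.2 and 72.4 CPM in LM1, 10.1, 10.7 and 10.8 in LM1-KO-labelled, 70.7, 77.4 and 78.7 in LM9 and 10.4, 10.05 and 9.72 in LM9-KO-labelled. Parental and knockout-labelled libraries were far apart, and LM9 replicate 1 was like the other 2. For Adamts7, limma-voom log2 fold changes were -2.72 (SE 0.077, adjusted p = 6.11e-11) in the LM1 pair, -2.91 (SE 0.078, adjusted p = 4.08e-11) in the LM9 pair and -2.95 (SE 0.064, adjusted p = 4.89e-17) in the LM9 pair without replicate 1. Adamts10, which binds fibrillin microfibrils, was at 12.5, 12.5 and 11.0 CPM in LM1, 3.35, 3.501 and 4.597 in LM1-KO-labelled, 13.5, 7.66 and 7.28 in LM9 and 2.88, 3.19 and 3.77 in LM9-KO-labelled. Every knockout-labelled library was under 5 CPM and every parental one above 7. For Adamts10, limma-voom gave log2 fold changes of -1.67 (SE 0.22, adjusted p = 2.67e-05) in the LM1 pair, -1.50 (SE 0.24, adjusted p = 0.000113) in the LM9 pair and -1.19 (SE 0.14, adjusted p = 5.76e-07) in the LM9 pair without replicate 1. Adamts6 was at 4.29 to 4.996 CPM in LM1 and 1.69 to 2.53 in LM1-KO-labelled, and limma-voom called it lower in the LM1 pair but not in the LM9 pair (-0.45, or 0.0083 without LM9 replicate 1). Whether its change differed between pairs was not shown with all libraries, and without LM9 replicate 1 the difference was 1.11 (SE 0.26, adjusted p = 0.00131) by limma-voom. Per kb, Adamts4 led the Adamts genes in LM1 with 44.9 to 45.5% of their sum, and Adamts1 led in LM1-KO-labelled with 45.8 to 46.7%. In LM9 replicate 1 Adamts4 led with 45.0%, whereas in LM9 replicates 2 and 3 Adamts7 led with 34.2 and 32.9% and Adamts4 had 26.3 and 26.7%. Adamts1 led in LM9-KO-labelled with 46.2 to 47.3%. The Adamts sum was 53.7 to 56.6 CPM per kb in LM1 and 20.7 to 21.3 in LM1-KO-labelled.

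ADAMTS-like proteins lack the protease domain and are found in microfibrils and other matrix. Adamtsl5 was at 16.2, 13.9 and 15.8 CPM in LM1, 97.7, 95.7 and 97.4 in LM1-KO-labelled, 14.6, 6.89 and 7.91 in LM9 and 93.1, 93.5 and 94.8 in LM9-KO-labelled. All 6 knockout-labelled libraries were above 90 CPM and LM9 replicates 2 and 3 were lowest. For Adamtsl5, limma-voom log2 fold changes were 2.67 (SE 0.16, adjusted p = 2.62e-08) in the LM1 pair, 3.31 (SE 0.18, adjusted p = 1.21e-08) in the LM9 pair and 3.67 (SE 0.090, adjusted p = 2.37e-16) in the LM9 pair without replicate 1. Adamtsl3 was at 7.87, 7.29 and 7.92 CPM in LM1, 35.0, 36.9 and 35.7 in LM1-KO-labelled, 8.13, 5.76 and 4.76 in LM9 and 37.2, 35.2 and 36.4 in LM9-KO-labelled. The groups did not overlap in either pair. For Adamtsl3, limma-voom gave log2 fold changes of 2.22 (SE 0.13, adjusted p = 1.41e-08) in the LM1 pair, 2.56 (SE 0.14, adjusted p = 8.32e-09) in the LM9 pair and 2.79 (SE 0.10, adjusted p = 4.48e-14) in the LM9 pair without replicate 1. Adamtsl4, tied to fibrillin and the eye lens, was at 40.0, 35.3 and 39.9 CPM in LM1, 56.5, 54.6 and 56.0 in LM1-KO-labelled, 39.0, 83.0 and 88.6 in LM9 and 56.3, 54.9 and 59.5 in LM9-KO-labelled. The knockout-labelled libraries lay between LM1 and LM9 replicates 2 and 3. For Adamtsl4, limma-voom log2 fold changes were 0.54 (SE 0.24, adjusted p = 0.0598) in the LM1 pair, -0.20 (SE 0.24, adjusted p = 0.436) in the LM9 pair and -0.59 (SE 0.053, adjusted p = 1.22e-08) in the LM9 pair without replicate 1, and the LM9 value was 0.14 with total counts. Adamtsl2 had 0 counts in all 6 parental libraries and 1.49 to 1.97 CPM in the knockout-labelled ones, at least 15.5-fold and 14.1-fold higher in the LM1 and LM9 pairs.

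The 4 inhibitors divided evenly. Timp3, which binds to matrix and also inhibits ADAM17, went from almost no reads to over 100 CPM (ENSMUSG00000020044, chr10:86300372-86349506, + strand). It was at 0, 0.153 and 0 CPM in LM1, 111, 111 and 111 in LM1-KO-labelled, 0.0337, 0 and 0 in LM9 and 114, 109 and 115 in LM9-KO-labelled. LM1 replicate 2 held the only reads in LM1, at 0.153 CPM, and in LM9 1 library held a single count. For Timp3, the limma-voom log2 fold change in the LM1 pair was 11.52 (SE 0.55, adjusted p = 3.34e-09), and in the LM9 pair the level was at least 935-fold higher against the floor. Timp1, a secreted inhibitor of many MMPs, was at 27.5, 27.6 and 24.6 CPM in LM1, 155, 145 and 155 in LM1-KO-labelled, 25.5, 53.4 and 51.4 in LM9 and 149, 149 and 153 in LM9-KO-labelled. Libraries labelled knockout were above 140 CPM, LM9 replicates 2 and 3 near 50, and LM1 and LM9 replicate 1 under 30. For Timp1, limma-voom gave log2 fold changes of 2.51 (SE 0.21, adjusted p = 4.81e-07) in the LM1 pair, 1.88 (SE 0.20, adjusted p = 4.29e-06) in the LM9 pair and 1.53 (SE 0.050, adjusted p = 9.57e-15) in the LM9 pair without replicate 1. Timp1 lies inside the gene Syn1, which runs on the opposite strand and had mean levels of 0.0102 CPM in LM1, 8.10 in LM1-KO-labelled, 0.0400 in LM9 and 7.47 in LM9-KO-labelled.

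Timp2, which inhibits MMPs and takes part with MMP14 in activating the MMP2 precursor, was at 1086, 1105 and 1062 CPM in LM1, 804, 775 and 812 in LM1-KO-labelled, 1083, 1227 and 1269.7 in LM9 and 779, 779 and 798 in LM9-KO-labelled. It was lower in each knockout-labelled library than in each parental one. For Timp2, limma-voom log2 fold changes were -0.44 (SE 0.062, adjusted p = 3.79e-05) in the LM1 pair, -0.60 (SE 0.062, adjusted p = 2.76e-06) in the LM9 pair and -0.67 (SE 0.028, adjusted p = 4.29e-13) in the LM9 pair without replicate 1. Reck, a membrane-anchored inhibitor of MMPs, was at 15.1, 16.2 and 14.9 CPM in LM1, 3.07, 2.72 and 2.96 in LM1-KO-labelled, 15.7, 5.08 and 5.31 in LM9 and 3.24, 3.36 and 2.96 in LM9-KO-labelled. LM9 replicates 2 and 3 were near 5 CPM, between the other parental libraries and the knockout-labelled ones. For Reck, limma-voom gave log2 fold changes of -2.40 (SE 0.34, adjusted p = 4.85e-05) in the LM1 pair, -1.27 (SE 0.37, adjusted p = 0.00712) in the LM9 pair and -0.70 (SE 0.12, adjusted p = 3.28e-05) in the LM9 pair without replicate 1. Per kb, Timp2 made up 89.1 to 89.8% of the summed level of the 3 Timp genes and Reck in LM1 and 52.2 to 52.8% in LM1-KO-labelled, while Timp1 went from 9.14 to 9.91% to 43.4 to 44.1%. The sum was 303 to 318 CPM per kb in LM1, 377 to 397 in LM1-KO-labelled, 309.9 to 385 in LM9 and 382 to 392 in LM9-KO-labelled.

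Plau encodes urokinase (uPA), Plaur its receptor and Plat tissue plasminogen activator (tPA). Plau was at 229, 237 and 224 CPM in LM1, 74.6, 75.5 and 78.0 in LM1-KO-labelled, 232, 214 and 212 in LM9 and 79.2, 73.4 and 75.1 in LM9-KO-labelled. The parental and knockout-labelled ranges were far apart, and LM9 replicate 1 was close to the other 2. For Plau, limma-voom log2 fold changes were -1.60 (SE 0.057, adjusted p = 3.17e-10) in the LM1 pair, -1.53 (SE 0.057, adjusted p = 4.54e-10) in the LM9 pair and -1.49 (SE 0.040, adjusted p = 7.68e-16) in the LM9 pair without replicate 1. Plaur moved the other way and was at 33.8, 28.8 and 33.1 CPM in LM1, 137, 137 and 143 in LM1-KO-labelled, 33.5, 87.7 and 83.8 in LM9 and 131, 134 and 136 in LM9-KO-labelled. LM9 replicates 2 and 3 stood between LM1 and the knockout-labelled libraries. For Plaur, limma-voom gave log2 fold changes of 2.13 (SE 0.28, adjusted p = 2.52e-05) in the LM1 pair, 1.10 (SE 0.27, adjusted p = 0.00254) in the LM9 pair and 0.64 (SE 0.050, adjusted p = 1.57e-09) in the LM9 pair without replicate 1. Plat was at 149, 152 and 147 CPM in LM1, 124, 122 and 124 in LM1-KO-labelled, 149.9, 112 and 109 in LM9 and 126, 123 and 127 in LM9-KO-labelled. LM1 and LM9 replicate 1 were highest and LM9 replicates 2 and 3 lowest. For Plat, limma-voom log2 fold changes were -0.28 (SE 0.098, adjusted p = 0.0215) in the LM1 pair, 0.03 (SE 0.099, adjusted p = 0.761) in the LM9 pair and 0.19 (SE 0.036, adjusted p = 0.000109) in the LM9 pair without replicate 1.

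**Figure D4:**
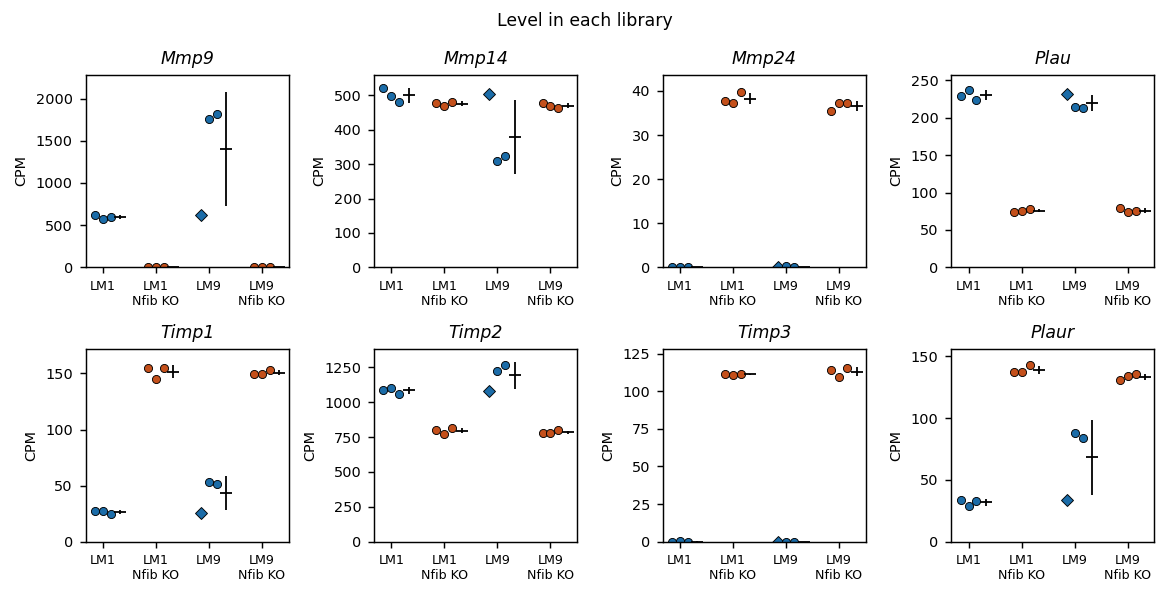
CPM of 8 members in each library, on linear axes from 0, by group, with parental libraries in blue, knockout-labelled ones in orange, LM9 replicate 1 as a diamond and the mean ± SD of 3 libraries in black. Mmp9 and Plau are lower and Mmp24, Timp1, Timp3 and Plaur higher in every knockout-labelled library, and the diamond sits at the LM1 level in the panels of Mmp9, Mmp14, Timp1 and Plaur.

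Of 34 genes listed as convertases, sheddase partners, serine protease inhibitors and other regulators of these enzymes, 24 were in the files. In the LM1 pair 8 were higher, 11 lower and 5 did not pass limma-voom, beside 81.2% of all genes passing (43.1% higher, 38.1% lower). In the LM9 pair 9 were higher, 13 lower and 2 did not pass, beside 82.3% (44.3% and 38.0%). Leaving out LM9 replicate 1 gave 9 higher, 14 lower and 1 not passing in the LM1 pair, beside 88.6%, and 10, 13 and 1 in the LM9 pair, beside 88.9%. In the LM1 pair the share that passed was near the background. The partners of ADAM17 and ADAM10 had 7 listed genes, with 4 lower in the LM1 pair (Rhbdf1, Rhbdf2, Tspan5 and Tspan14), none higher and 3 not passing. In the LM9 pair 5 of these 7 were lower and 1, Frmd8, was higher. Without LM9 replicate 1 both pairs gave 5 lower and 1 higher, again Frmd8, where 42.1% and 41.2% of all genes were lower. Rhbdf1 and Rhbdf2 encode the iRhoms, which carry ADAM17 to the cell surface. Serpinb2 and Serpinf2, which encode serine protease inhibitors, were higher and the plasminogen receptor gene Plgrkt lower in both pairs, with and without LM9 replicate 1. Serpinf2 was near the floor throughout, at 2 counts or fewer in each parental library and 3 to 17 counts in the knockout-labelled ones.

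Serpine2, protease nexin 1, an inhibitor of thrombin and urokinase, had the largest fall of the list. It was at 4456, 4542 and 4269 CPM in LM1, 0.126, 0.131 and 0.159 in LM1-KO-labelled, 4429, 7276 and 7579 in LM9 and 0.181, 0.0730 and 0.156 in LM9-KO-labelled. All parental libraries were very high and the knockout-labelled ones close to the floor. For Serpine2, limma-voom gave log2 fold changes of -14.84 (SE 0.60, adjusted p = 8.71e-10) in the LM1 pair, -15.45 (SE 0.61, adjusted p = 7.09e-10) in the LM9 pair and -15.69 (SE 0.38, adjusted p = 1.97e-16) in the LM9 pair without replicate 1. Papln, papilin, a matrix protein related to ADAMTS enzymes, was at 55.5, 47.4 and 51.8 CPM in LM1, 0.0252, 0 and 0.0528 in LM1-KO-labelled, 51.5, 59.0 and 62.6 in LM9 and 0.0259, 0.0243 and 0 in LM9-KO-labelled. The knockout-labelled libraries held 2 counts or fewer each, so that Papln was at least 651-fold and 740.1-fold lower in them in the LM1 and LM9 pairs (779.6-fold in the LM9 pair without replicate 1). Thsd4, an ADAMTS-like protein of microfibrils, was at 31.8, 29.8 and 30.4 CPM in LM1, 6.07, 6.64 and 6.02 in LM1-KO-labelled, 29.7, 25.1 and 27.4 in LM9 and 5.06, 6.67 and 5.09 in LM9-KO-labelled. For Thsd4, limma-voom log2 fold changes were -2.29 (SE 0.11, adjusted p = 3.19e-09) in the LM1 pair, -2.30 (SE 0.11, adjusted p = 4.32e-09) in the LM9 pair and -2.23 (SE 0.096, adjusted p = 4.67e-13) in the LM9 pair without replicate 1. The largest rises were in low genes, with Rarres1 at 1.71 to 2.25 CPM, Serpinb2, the inhibitor PAI-2, at 2.91 to 4.09 and the convertase Pcsk6 at 0.608 to 1.16 in the knockout-labelled libraries, and none above 0.236 CPM in a parental one.

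Between LM1 and LM9, none of the 47 members passed limma-voom with all libraries, although 29 had an unadjusted p under 0.05, beside 47.7% of all genes, and 25 an adjusted p between 0.05 and 0.06, beside 30.1%. Of all genes tested 0.00550% passed, a single gene. The edgeR quasi-likelihood test also gave 0 members, whereas DESeq2 gave 20 of the 43 members it gave an adjusted p, beside 41.1% of all genes. Without LM9 replicate 1 limma-voom gave 36 members, 27 lower and 9 higher in LM9 than in LM1, beside 65.7% of all genes (33.4% lower, 32.4% higher). In that fit the largest difference was in Mmp2, -4.46 (SE 0.32, adjusted p = 2.52e-09). Next came Mmp15, at -2.63 (SE 0.28, adjusted p = 3.70e-07) in the same limma-voom fit. The largest rises in LM9 by limma-voom were in Mmp9, 1.57 (SE 0.031, adjusted p = 1.36e-15), and in Mmp24, 1.45 (SE 0.58, adjusted p = 0.0367), which had at most 5 counts in any parental library. Plaur was next, at 1.43 (SE 0.058, adjusted p = 2.13e-12) by limma-voom.

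The change with the knockout label did not differ between the lines for any member with all libraries by limma-voom, where 19 members had an unadjusted p under 0.05, beside 24.7% of all genes, and no gene of all tested passed. The edgeR quasi-likelihood test and DESeq2 also called 0 members. Without LM9 replicate 1, 33 members passed, 25 with a higher and 8 with a lower log2 fold change in the LM9 pair than in the LM1 pair, beside 57.2% of all genes (29.6% higher, 27.6% lower). The largest of these differences by limma-voom was in Mmp2, 4.39 (SE 0.33, adjusted p = 8.90e-09), followed by Mmp15, 2.67 (SE 0.31, adjusted p = 1.41e-06). Each pair has its own libraries, but the difference between pairs rests on the same LM1 and LM9 libraries as the comparison of the lines.

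**Figure D5:**
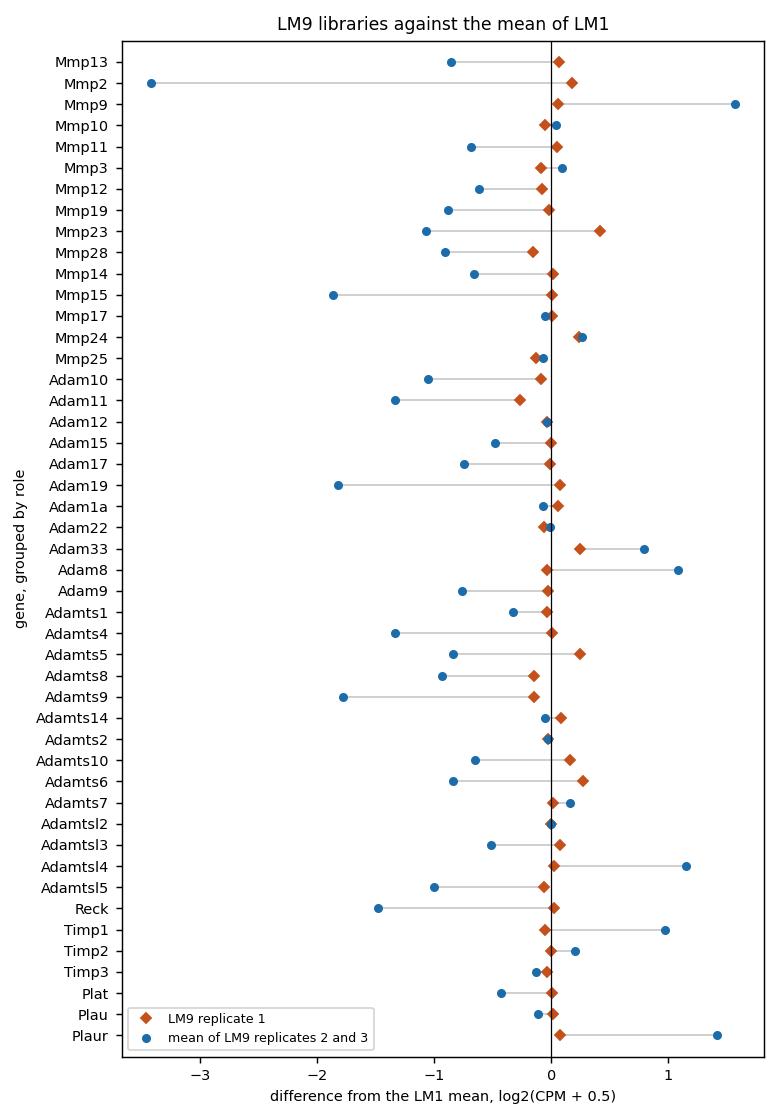
Difference of LM9 replicate 1 (diamonds) and of the mean of LM9 replicates 2 and 3 (circles) from the LM1 mean, on the log2(CPM + 0.5) scale, for each member. Diamonds lie close to 0 for nearly all genes, while circles reach far to the left for Mmp2 and to the right for Mmp9 and Plaur.

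LM1-KO-labelled and LM9-KO-labelled libraries did not differ in any member by limma-voom, with 0 members at an unadjusted p under 0.05 and 0 by edgeR or DESeq2, and 0 of all genes tested. The largest absolute log2 difference between these groups was 0.48. The lack of calls does not show that the groups were equal.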

How the data were processed

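RNA-seq was done on 12 tumoursphere libraries in 4 groups of 3, grouped by their titles. The authors prepared stranded poly-A libraries, aligned the reads with STAR to mm10 and counted reads over the union of each gene's exons with QuasR. The deposited values are whole-number counts per gene, 1 file per library, not normalised. Whether the counting used strand and how multi-mapping reads were treated is not given in the sources used here. In 8 members exons overlap another listed gene. These are Adam1a, Adam8, Adam17, Adamts4, Adamts7, Mmp11, Mmp19 and Mmp24, and their values are uncertain to that extent.

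Gene names and positions were taken from GENCODE M21 (GRCm38, the same assembly as mm10), with 18268 of 18278 identifiers matched. From the counts, edgeR 4.0.16 filterByExpr (count minimum 10, total minimum 15) kept 18176 genes, libraries were TMM-scaled, and limma 3.58.1 voom (offset 0.5, R 4.3.3) was fitted with 1 mean per group over all 12 libraries. Tests were two-sided with Benjamini-Hochberg adjustment over all genes within each of 5 contrasts, and a member was called at an adjusted p under 0.05. The pair fold changes are knockout-labelled minus parental. Library totals ran from 29249075 to 37162594 counts. Chi-square per gene between libraries of 1 group was 1.42 or more, so none was counted as a repeat of another. Across labels it was 2.12 between LM1 replicate 1 and LM9 replicate 1, below the 4.87 to 7.03 within LM1, and as low as 1.59 between LM1-KO-labelled and LM9-KO-labelled libraries. Code was tested on simulated data.

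Members, gene lists and tests were chosen with earlier results of these data known. Values in every library are given for the 34 members with a group mean of at least 10 CPM, and the other 13 are given by ranges. From the list of regulators, the 3 largest rises and falls with 1 sign in both pairs are named. One gene of that list is not reported here. Alternatives to this fit used DESeq2 1.42.0 or the edgeR quasi-likelihood test, total counts or median-ratio factors for scaling, genes at 5 CPM or more on average or all genes, the replicate number as a block, a fit to the compared groups alone, and a fit without each of the libraries. A limit of 1 on the absolute log2 fold change was also tried. A planned search of protein motifs was not run, since protein sequences were not used here. Members without a RefSeq promoter window were Adam11, Adam12, Adam33, Adam9, Adamts10, Adamts4, Adamts5, Adamts6, Adamts7, Adamts8, Mmp17, Mmp19, Mmp2, Mmp9, Plat and Plau.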

Additional observations from a re-analysis of the deposited data

How the results depend on the processing

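Leaving out 1 library at a time moved the number of members called higher in the LM1 pair between 17 and 20 and lower between 18 and 24, and in the LM9 pair between 21 and 27 and between 15 and 19. Of all genes, 41.2 to 46.4% were higher and 36.2 to 42.1% lower in the LM1 pair over these fits, and 42.7 to 47.7% and 36.1 to 41.2% in the LM9 pair. The number whose change differed between pairs ran from 0 to 33, beside 0 to 57.2% of all genes. The number that differed between LM1 and LM9 ran from 0 to 36, beside 0 to 65.7%, and both maxima came from leaving out LM9 replicate 1. Between the knockout labels it was 0 in every case. Members lower in the LM9 pair went from 18 to 9 with total counts, beside 30.2% of all genes. They went to 10 with an absolute log2 fold change above 1, by construction. A fit to the compared groups alone gave 34 members in the LM9 pair, 20 higher and 14 lower, beside 76.5% of all genes. In the LM1 pair that fit gave 43 members, 20 higher and 23 lower, beside 89.4%. Members that differed between LM1 and LM9 went from 0 to 20 with DESeq2, 25 with total counts and 21 at a mean of at least 5 CPM, beside 41.1%, 28.8% and 39.4% of all genes tested, where the cause was not tested.

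Signs changed in members whose difference with all libraries was small. Adam8 in the LM1 pair, at -0.00031 with all libraries, was 0.0001 with edgeR, 0.0243 with DESeq2, 0.0241 with median-ratio factors, 0.22 with total counts, 0.0053 without the count filter, 0.0109 at a mean of at least 5 CPM, and 0.0024 both with the replicate block and with only the groups compared, and between -0.0362 and 0.0315 with 1 library left out. With total counts the LM1 pair gave 0.0368 for Adam10, 0.15 for Mmp14, 0.0425 for Adamts1 and 0.0179 for Mmp3, and the LM9 pair gave 0.14 for Adamtsl4, 0.38 for Adamts9 and 0.15 for Mmp3. With 1 library left out, Adamtsl4 in the LM9 pair ran from -0.59 to 0.0159, Plat from -0.0490 to 0.19 and Adamts9 from -0.30 to 0.61, the last value without LM9 replicate 1. Calls near the threshold that were lost by leaving out single libraries included Mmp3 and Plat in the LM1 pair and Mmp3, Mmp14, Adam8, Adam10 and Adam17 in the LM9 pair. Other calls were lost too. Members called higher in the LM1 pair went from 18 to 17 without LM1 replicate 1, beside 41.2% of all genes. In the LM9 pair they went from 24 to 21 without LM9 replicate 2 or 3, beside 43.1% and 42.9%.

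Replicate numbers 1 to 3 recur in each group. Same-numbered libraries did not deviate together (correlations from -0.16 to 0.09), and 2 of 12 libraries correlated best with their own number. With the number as a block, the count of members called stayed at 18 higher and 20 lower in the LM1 pair, beside 42.5% and 37.8% of all genes. It stayed at 24 higher and 18 lower in the LM9 pair, beside 43.75% and 37.9%, and at 0 in the other 3 comparisons. Depth limits the 5 members at or under 3 counts in all parental libraries, and Adam33 in the knockout-labelled ones, to lower bounds.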
